A study of Sus scrofa with 18 samples.

Results

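The kainate and delta glutamate receptors measured here were 6 genes, GRIK1, GRIK2, GRIK3, GRIK4, GRIK5 and GRID1, which encode the subunits GluK1 to GluK5 and GluD1. They were chosen by name from the table of gene counts, in which 6 of 6 were found among 31908 genes and none was missing, and all 6 passed the filter on low counts. The data were poly(A)-selected RNA-seq libraries of whole brains dissected from pig fetuses at gestation days (GD) 45, 60 and 90. The fetuses were carried by crossbred Landrace and Large White gilts bred to the LR-M6 line, without any treatment. Each day held 3 females and 3 males, 6 groups and 18 libraries in all, and a replicate is named here by the piglet number its label gives. The labelled litter sizes place the fetuses in 9 litters, 1 female and 1 male of each and 3 litters per day, so a comparison of days is also a comparison of litters. A whole brain mixes all regions and cell types, and in such samples fewer cells of a type and less RNA per cell cannot be told apart.

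Kainate receptors are glutamate-gated cation channels built of several subunits. GluK1, GluK2 and GluK3 can form channels alone, whereas GluK4 and GluK5, which bind kainate with high affinity, reach the membrane as functional channels only together with one of the former. Kainate receptors act on both sides of synapses and tune transmitter release and excitability. GluD1 resembles these channels but is best known as an organizer of synapses, since it binds secreted cerebellins, which in turn bind neurexins on the opposite side.

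The relatedness of the 6 genes can be read from a coding exon of 54 bases that each of them carried in the exon table, the fifth exon of GRIK1, GRIK2, GRIK3 and GRID1, the eighth of GRIK4 and the seventh of GRIK5. The sequences are shown 5′ to 3′ on the coding strand, read from the RefSeq genome of the build used for the counts (Sscrofa11.1). They are given because the distance of GRID1 from the 5 kainate genes is visible in them. Capitals mark the bases that are identical in the 5 kainate genes, 19 of 54, and, for GRID1, the 8 of 54 bases identical in all 6 genes.
GRIK1, chr13:193015693-193015746, minus strand: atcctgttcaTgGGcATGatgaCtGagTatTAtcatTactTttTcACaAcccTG
GRIK2, chr1:68337752-68337805, plus strand: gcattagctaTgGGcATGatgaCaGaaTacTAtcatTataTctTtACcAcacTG
GRIK3, chr6:92955270-92955323, minus strand: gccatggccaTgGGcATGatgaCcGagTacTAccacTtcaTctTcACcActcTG
GRIK4, chr9:47942769-47942822, plus strand: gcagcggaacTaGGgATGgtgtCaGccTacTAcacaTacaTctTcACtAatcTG
GRIK5, chr6:49855989-49856042, plus strand: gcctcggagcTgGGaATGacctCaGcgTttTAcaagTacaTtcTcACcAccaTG
GRID1, chr14:86800912-86800965, minus strand: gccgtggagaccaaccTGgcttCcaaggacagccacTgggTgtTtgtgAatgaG
GRIK2 and GRIK3 were the closest pair, with 42 of 54 bases identical (77.8%), and GRIK1 shared 40 bases with GRIK3. GRIK4 and GRIK5 shared 35, as many as GRIK3 and GRIK4, and GRIK3 and GRIK5 shared 34. The high-affinity pair thus did not stand apart from GRIK3 in this exon. GRID1 stood farthest away, with from 19 bases shared with GRIK1 (35.2%) to 27 shared with GRIK3 (50.0%). The least alike kainate pair, GRIK1 and GRIK4, shared 28 bases (51.9%), so the gap to GRID1 was narrow at that point. No exon of another annotated gene overlapped an exon of the 6 genes.

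In the annotation of the files, GRIK1 (ENSSSCG00000025119) spans 192877618 to 193294952 on the minus strand of chromosome 13 and GRIK2 (ENSSSCG00000004361) spans 68057737 to 68679278 on the plus strand of chromosome 1. GRIK3 (ENSSSCG00000003640) and GRIK5 (ENSSSCG00000003038) both lie on chromosome 6, at 92880301 to 93128582 on the minus strand and at 49844879 to 49901186 on the plus strand. GRIK4 (ENSSSCG00000015131) spans 47639971 to 48097872 on the plus strand of chromosome 9, and GRID1 (ENSSSCG00000010352) spans 86539896 to 87227394 on the minus strand of chromosome 14. GRIK5 is thus the most compact of the 6 genes, although its summed exonic length of 4026 bases is close to the 3913 bases of GRIK1.

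Library totals ran from 15118843 to 19729783 counts, with a median of 16413097, so that 1 count in the median library was worth about 0.061 CPM (counts scaled by the library's total and its TMM factor). The lowest member value, 12.1 CPM for both GRIK1 and GRIK2 in GD45 male 17, rested on 156 counts. The GD45 fetuses of the litter of 8, female 18 and male 17, had the lightest brains of that day, and male 17 stood apart in several measures given below. Lists of marker genes were summed in CPM within each library, and the median sum of a day is given. For progenitor genes (5 measured) it fell from 1236 at GD45 to 459 at GD90. It was 6781 and 8393 for neurons (6 genes), 342 and 1776 for astrocytes (6 genes), and 67.8 and 2387 for oligodendrocytes (5 genes). Most of the neuron sum came from TUBB3 (means of 4230 and 3463 CPM) and STMN2 (2049 and 3017). The means of SNAP25 were 237 and 587 CPM, of SYT1 226 and 769, of RBFOX3 41.5 and 110, and of MAP2 183 and 483. No gene of these lists was at 0 in all libraries of a day, and SOX2, MKI67 and MOBP were not analysed here. Part of the libraries also differed in how far their counts were concentrated at the 3′ end of genes. Over 2558 genes with at least 5 exons and 100 counts in every library, the median share of exon counts on the exon nearest the 3′ end was 44.7 to 65.3% at GD45, 39.4 to 54.3% at GD60 and 37.2 to 52.8% at GD90, with male 17 of GD45 highest.

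Per kilobase of exon, GRIK5 was the most abundant of the 6 genes by a wide margin, and it was the highest in 18 of 18 libraries. Its mean was 57.8 FPKM (CPM divided by the kilobases of summed exon length) at GD45, 61.3 at GD60 and 55.2 at GD90. GRIK3, with 14.7, 13.9 and 12.2 FPKM, and GRID1, with 12.8, 18.6 and 21.9, came next and changed places, GRIK3 being above GRID1 in 4 of 6 libraries at GD45 and in none later. GRIK2 had 8.18, 11.2 and 11.0 FPKM and was above GRIK4 in 17 of 18 libraries. GRIK4 had 5.24, 5.68 and 6.62 FPKM. GRIK1 was the lowest at GD45, with 3.33 FPKM, and had 4.49 at GD60 and 8.40 at GD90. It lay below GRIK4 in all 12 libraries of GD45 and GD60 and above it in all 6 libraries of GD90. The neighbours GRIK3 and GRID1 at GD45 therefore did not separate, and GRIK2 was below GRIK4 in 1 of 6 libraries of that day. At GD90 GRIK1 was above GRIK2 in 1 of 6 libraries and above GRIK3 in 1 of 6, and GRIK2 was above GRIK3 in 1 of 6, so these 3 genes did not separate in every library either.

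**Figure D1:**
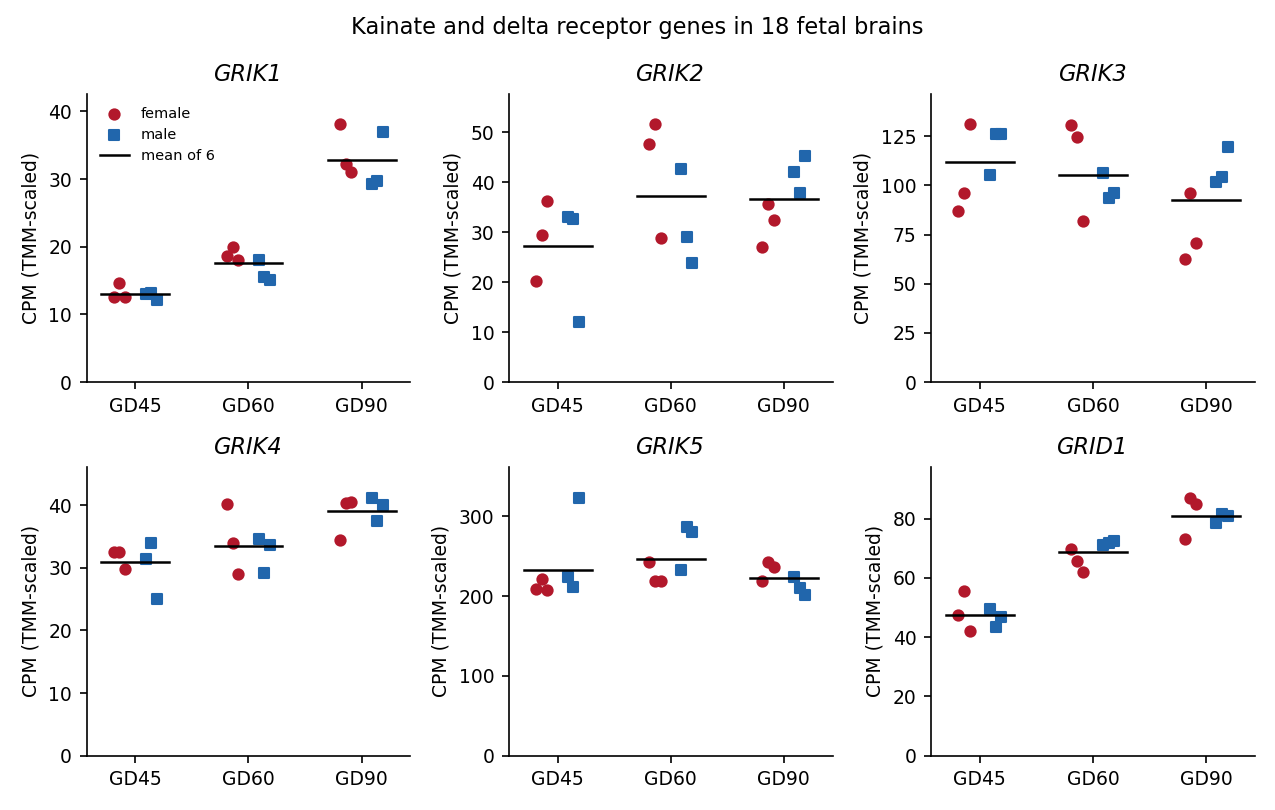
Levels of the 6 genes in CPM, on linear axes, by gestation day, with a point for each of 18 libraries, females and males marked apart, and a line at the mean of the 6 libraries of a day. GRIK1 rose from a mean of 13.0 to 32.9 CPM and GRID1 from 47.5 to 81.0 CPM, with no overlap between consecutive days, while the single high point of GRIK5 is GD45 male 17 at 323 CPM.

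GRIK1, a channel-forming subunit, and GRID1 were the 2 of 6 genes that rose from GD45 to GD60, and the same 2 rose again from GD60 to GD90 by the quasi-likelihood test of edgeR at an adjusted p under 0.05 (Benjamini-Hochberg). Of all 16325 genes tested, 16.7% passed this test in the first interval and 42.4% in the second. No member fell between days when the sexes were averaged. The median log2 fold change of the 6 genes was 0.27 and then 0.10, against -0.01 in both intervals over all genes tested.

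GRIK1 was measured at 12.6, 14.7 and 12.5 CPM in females 12, 13 and 18 and at 13.1, 13.2 and 12.1 CPM in males 11, 14 and 17 of GD45. At GD60 it reached 18.7, 20.0 and 18.1 CPM in females 3, 5 and 15 and 18.1, 15.6 and 15.0 CPM in males 4, 6 and 16. At GD90 it stood at 38.1, 32.2 and 31.0 CPM in females 2, 7 and 9 and at 29.3, 29.7 and 36.9 CPM in males 1, 8 and 10. Every library of a later day was thus above every library of the day before it, a separation that was not counted over all genes. The mean was 13.0 ± 0.882 CPM (SD, n = 6) at GD45, 17.6 ± 1.90 at GD60 and 32.9 ± 3.75 at GD90. The log2 fold change was 0.43 (SE 0.096) from GD45 to GD60, a 1.34-fold rise with an adjusted p of 0.00519, and 0.91 (SE 0.095) from GD60 to GD90, a 1.87-fold rise with an adjusted p of 1.16e-06. The larger rise held in all 30 alternative analyses that were run. The smaller one held in 28 of them and did not pass when only the counts of the exon table were used (adjusted p = 0.102, and 0.114 without the exon nearest the 3′ end), although its size stayed at 0.44 and 0.41.

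GRID1 was measured at 47.5, 55.7 and 42.1 CPM in females 12, 13 and 18 and at 49.4, 43.5 and 46.8 CPM in males 11, 14 and 17 of GD45. The GD60 values were 69.7, 65.6 and 62.0 CPM in females 3, 5 and 15 and 70.9, 71.7 and 72.6 CPM in males 4, 6 and 16. At GD90, females 2, 7 and 9 had 73.1, 87.0 and 85.1 CPM and males 1, 8 and 10 had 78.7, 81.4 and 80.9 CPM. Here too the days did not overlap, although the lowest GD90 library, female 2, was only slightly above the highest GD60 library, male 16. The mean was 47.5 ± 4.82 CPM at GD45, 68.8 ± 4.11 at GD60 and 81.0 ± 4.92 at GD90 (SD, n = 6). In contrast to GRIK1, the earlier interval held the larger change of GRID1, with a log2 fold change of 0.53 (SE 0.080, 1.45-fold, adjusted p = 0.000225), against 0.24 (SE 0.080, 1.18-fold, adjusted p = 0.0236) from GD60 to GD90. The later rise lost the call when any 1 of 4 libraries was left out, with an adjusted p of 0.052 without GD60 female 15, 0.0619 without GD90 female 7, 0.0583 without GD90 female 9 and 0.0617 without GD90 male 8. The call was also lost in 5 of 12 other settings, with edgeR adjusted p-values up to 0.15. These were counts summed over the fetuses of a litter (0.0752), no TMM, no filter on low counts, and exon table sums with and without the exon nearest the 3′ end. The log2 fold change ranged from 0.20 to 0.25 over these 12 settings and from 0.21 to 0.26 over the 18 fits without a library.

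**Figure D2:**
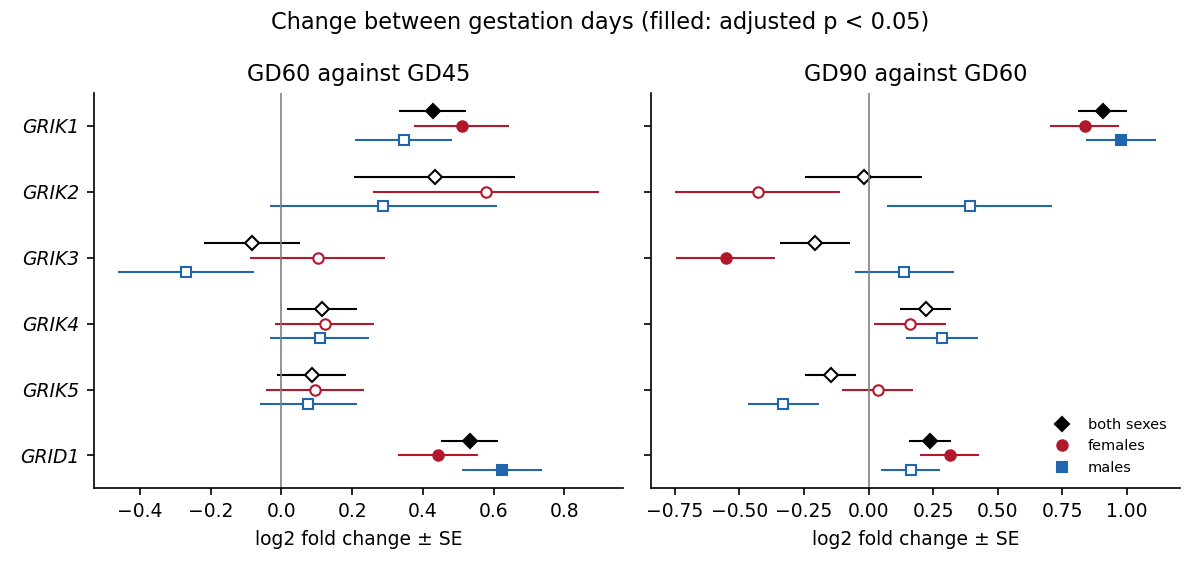
Log2 fold change ± SE of each of the 6 genes between consecutive gestation days, averaged over the sexes and in females and males apart, with filled points where the adjusted p was under 0.05. With the sexes averaged, GRIK1 moved most from GD60 to GD90 (0.91) and GRID1 moved most from GD45 to GD60 (0.53).

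The other channel-forming subunits did not pass the test between days. GRIK2, at the lowest, the median and the highest of 6 libraries, was at 12.1, 31.0 and 36.2 CPM at GD45, at 23.8, 35.9 and 51.6 CPM at GD60 and at 27.1, 36.7 and 45.3 CPM at GD90. The days overlapped widely, and its log2 fold changes were 0.43 (SE 0.23, adjusted p = 0.212) and -0.02 (SE 0.23, adjusted p = 0.955). GRIK3, given in the same way, was at 86.9, 116 and 131 CPM at GD45, at 81.9, 101 and 131 CPM at GD60 and at 62.6, 99.0 and 120 CPM at GD90. Its days overlapped too, and its log2 fold changes were -0.08 (SE 0.14, adjusted p = 0.724) and -0.21 (SE 0.14, adjusted p = 0.233).

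Of the high-affinity subunits, GRIK4 had a mean of 30.8 ± 3.21 CPM at GD45, 33.4 ± 4.09 at GD60 and 39.0 ± 2.59 at GD90 (SD, n = 6). At GD90 its libraries had 34.4, 40.4 and 40.5 CPM in females 2, 7 and 9 and 41.1, 37.5 and 40.0 CPM in males 1, 8 and 10, and 3 of these 6 were above all GD60 libraries. The log2 fold change was 0.12 (SE 0.099, adjusted p = 0.469) in the first interval and 0.22 (SE 0.099, adjusted p = 0.0808) in the second. The latter passed without GD45 male 17 (adjusted p = 0.0389) and without GD60 female 3 (0.0333), so whether GRIK4 was called depended on single libraries. Male 17 belongs to neither day of this contrast and enters it only through the filter, scaling and spread, which are estimated over all libraries. GRIK5, the most abundant gene of the family, was at 233 ± 44.8, 247 ± 29.8 and 222 ± 15.3 CPM (SD, n = 6), with log2 fold changes of 0.09 (SE 0.098, adjusted p = 0.601) and -0.15 (SE 0.098, adjusted p = 0.242). Its libraries ran from 219 to 287 CPM at GD60 and from 202 to 243 CPM at GD90. The wide spread at GD45 rested on male 17, at 323 CPM, where the other 5 libraries lay between 207 and 224 CPM. In the same library GRIK2 was at 12.1 CPM against 20.2 to 36.2 in the others and GRIK4 at 24.9 against 29.8 to 34.0, while GRIK1, GRIK3 and GRID1 lay within or within 1 CPM of the range of the others.

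The changes were also tested within each sex, where fewer libraries entered a contrast. From GD45 to GD60 in females, in which 7.22% of genes passed, GRID1 (log2 fold change 0.44, adjusted p = 0.0256) and GRIK1 (0.51, adjusted p = 0.0297) rose. Both calls were lost without any 1 of the females 12 and 18 of GD45 and 3 and 5 of GD60, with adjusted p-values of 0.0752 to 0.126 for GRID1 and 0.0865 to 0.117 for GRIK1. In males, in which 5.61% of genes passed, GRID1 rose (0.62, adjusted p = 0.00354) and GRIK1 had a log2 fold change of 0.35 with an adjusted p of 0.172.

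From GD60 to GD90, GRIK1 rose in females (0.84, adjusted p = 0.000219) and in males (0.98, adjusted p = 5.5e-05), where 27.1% and 34.5% of all genes passed. GRID1 also rose in females (0.31, adjusted p = 0.0488), a call that held in only 11 of 29 alternatives. In males the log2 fold change of GRID1 was 0.16 with an adjusted p of 0.275. GRIK3 fell by 0.55 on the log2 scale in females (SE 0.19, adjusted p = 0.0415), from 131, 124 and 81.9 CPM in females 3, 5 and 15 to 62.6, 96.2 and 70.8 CPM in females 2, 7 and 9. The ranges of these females overlapped, and the call was lost in 10 of 29 alternatives, among them those without GD60 female 3 (adjusted p = 0.163), GD60 female 5 (0.139), GD90 female 2 (0.174) and GD90 female 9 (0.131). In males GRIK3 was at 106, 93.6 and 96.2 CPM in males 4, 6 and 16 of GD60 and at 102, 104.5 and 120 CPM in males 1, 8 and 10 of GD90, with a log2 fold change of 0.14 (adjusted p = 0.601). GRIK5 was at 233, 287 and 280 CPM in the GD60 males and at 224, 211 and 202 CPM in the GD90 males, without overlap, but its log2 fold change of -0.33 did not pass (adjusted p = 0.0748). It passed without GD45 male 17 (adjusted p = 0.00934), which belongs to neither day of this contrast, and without GD60 male 4 (0.0397).

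Whether such changes differed between the sexes was tested directly. The change from GD60 to GD90 in males minus that in females was 0.69 for GRIK3 (SE 0.27, edgeR adjusted p = 0.216), 0.82 for GRIK2 (adjusted p = 0.302) and -0.36 for GRIK5 (adjusted p = 0.29). None of the 6 genes passed in either interval, and 0.0% of all genes did so from GD45 to GD60 and 0.0% from GD60 to GD90 by edgeR's quasi-likelihood test. At an unadjusted p under 0.05 there were 333 genes in the first interval and 3232 in the second, and of the members only GRIK3, in the second. The edgeR likelihood ratio test called 0 and 129 genes and DESeq2 called 0 and 277, again without a member. Without GD45 male 17, which belongs to neither day of the second interval, 2205 genes passed in that interval, and no member was among them.

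Between males and females of the same day, 0.0919% of genes passed at GD45, 0.098% at GD60 and 0.098% at GD90, and no receptor gene was among them with edgeR's quasi-likelihood test, the likelihood ratio test or DESeq2. The largest difference was that of GRIK3 at GD90, at 102, 104.5 and 120 CPM in males and 62.6, 96.2 and 70.8 CPM in females. Every male was above every female, though such separation was not counted over all genes. The log2 ratio of male to female was 0.50 (SE 0.19, edgeR adjusted p = 0.35). GRIK3 was the only member with an unadjusted edgeR p under 0.05 in the 3 comparisons, and at GD90 2213 of all 16325 genes had one. The GD90 males also had the lower shares of counts at the 3′ end, 37.2 to 39.1%, against 41.3, 49.6 and 52.8% in the GD90 females.

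Because that share differed between libraries, the levels of the 6 genes were set against it over all 18 libraries, as 6 relations with permutation tests of 100000 resamples. The resamples ran across the days, so changes of level and share with day enter these p-values. GRIK2 was lower where the share was higher, with a Pearson r of -0.87 (adjusted p = 0.00036) and a Spearman rho of -0.85 (adjusted p = 0.00024), and r stayed at -0.75 without the 2 libraries farthest from the median share. Within GD45, GD60 and GD90 the r of GRIK2 was -0.95, -0.79 and -0.93. None of these passed exact permutation tests adjusted over 18 relations within days (adjusted p = 0.14, 0.158 and 0.0667). GRIK4 followed the same direction, with a Pearson r of -0.80 (adjusted p = 0.00042), a Spearman rho of -0.66 (adjusted p = 0.00984) and an r of -0.66 without the 2 farthest libraries. Within the days its r was -0.86, -0.86 and -0.53, and none of these passed either (adjusted exact permutation p = 0.3, 0.1375 and 0.536).

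GRIK3 had no such relation over all libraries, with an r of -0.28 (permutation p = 0.266) and a rho of -0.39 (permutation p = 0.114), and r was -0.57 without the 2 farthest libraries. Within GD60 its r was -0.98 and within GD90 -0.99, by exact permutation tests with p-values of 0.00556 and 0.00278, each 0.05 after adjustment over 18 such relations, against 0.09 within GD45. GRIK1 and GRID1 each had an r of -0.50 with adjusted permutation p-values of 0.0543 and 0.0567, and GRIK5 had 0.50 (adjusted permutation p = 0.0648), which fell to 0.01 without the 2 farthest libraries. When the share was added to the model of all genes, the rises of GRIK1 were 0.41 (adjusted p = 0.00391) and 0.89 (adjusted p = 2.95e-07) and those of GRID1 were 0.51 (adjusted p = 8.49e-05) and 0.21 (adjusted p = 0.0263), all past the threshold as before. The fall of GRIK3 in females was 0.50 on the log2 scale in that model, with an adjusted p of 0.0192. This model and the share were chosen after the data had been seen.

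**Figure D3:**
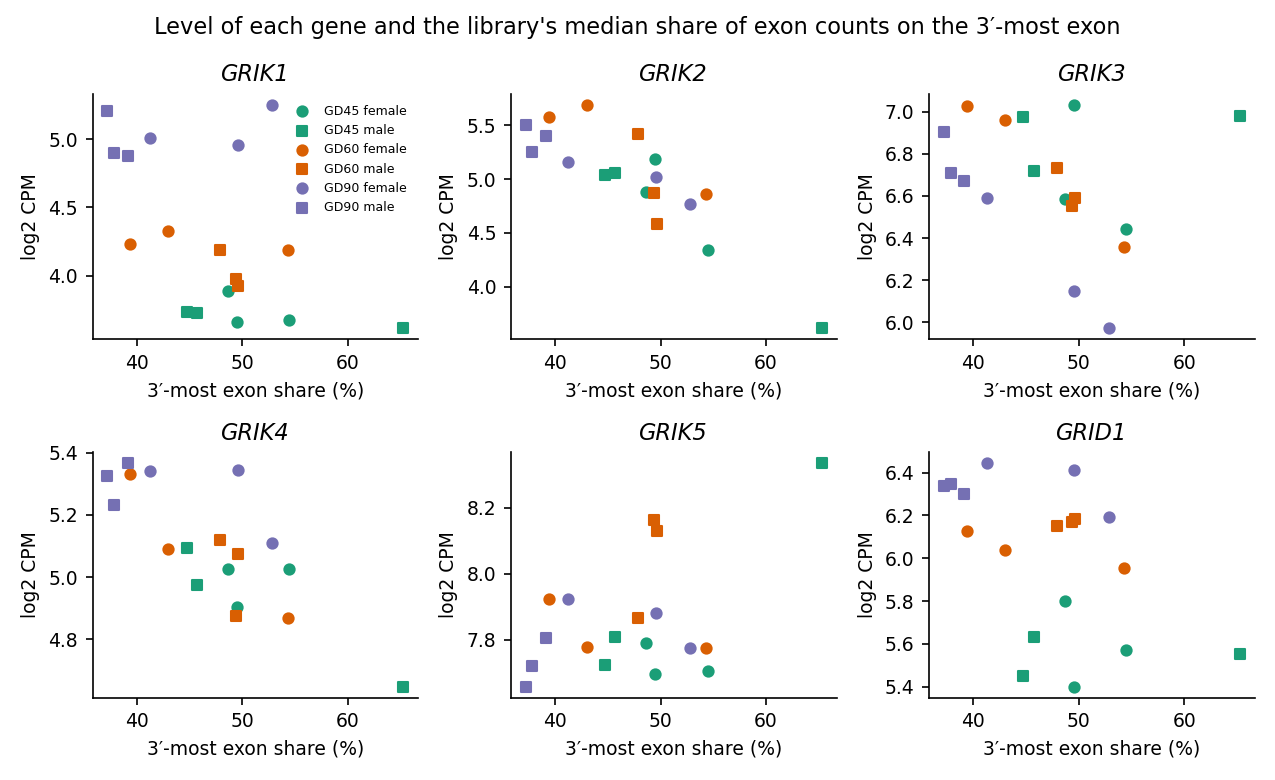
Level of each of the 6 genes on the log2 CPM scale against the library's median share of exon counts on the exon nearest the 3′ end, in percent, with a point for each of 18 libraries and colours for the gestation days. GRIK2 and GRIK4 lie lower at higher shares (r of -0.87 and -0.80), and the point at 65.3% is GD45 male 17.

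The rises of GRIK1 and GRID1 could be followed along the genes in the table of exon counts, in which reads that span a junction or fall on overlapping exons were not counted. This table held 75.0% as many counts as the gene table for GRID1, 55.4% for GRIK1 and 19.3% for GRIK4, whose exons near the 3′ end overlap one another. Of 124 exons of the 6 genes, 79 passed the filter. From GD45 to GD60, 3 of them passed edgeR's quasi-likelihood test, against 2.0% of all 80134 exons tested. All 3 were exons of GRID1 and all rose, by 1.24 on the log2 scale for exon 2 (SE 0.28, adjusted p = 0.0212), by 1.04 for exon 4 (SE 0.22, adjusted p = 0.0162) and by 0.87 for exon 10 (SE 0.22, adjusted p = 0.0453). The last exon of GRID1, which alone held 1384 counts at GD45 and 1568 at GD60, had a log2 fold change of 0.11 (SE 0.22, adjusted p = 0.847). The share of GRID1's exon counts on it had a median of 35.3% at GD45, 30.2% at GD60 and 24.6% at GD90. The median share over the 2558 genes measured for it was 49.1%, 48.6% and 40.2% in the median library of these days. Without GD60 female 5 none of the 3 exons passed, and without GD45 female 12, GD45 female 18 or GD60 male 4 only 1 did.

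The called GRID1 exon with the largest rise in the earlier interval is shown, with 71 counts over the GD45 libraries and 173 over those of GD60. It lies within the coding sequence.
GRID1 exon 2, 156 bases, chr14:87224501-87224656, minus strand: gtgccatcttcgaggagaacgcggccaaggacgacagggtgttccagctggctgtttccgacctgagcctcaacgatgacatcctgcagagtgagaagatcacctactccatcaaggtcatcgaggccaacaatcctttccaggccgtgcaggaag

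From GD60 to GD90, 5 of the 79 exons passed, 4 up and 1 down, against 12.6% of all exons. In GRIK1 these were exon 1 (0.85, adjusted p = 0.0403), exon 11 (1.34, adjusted p = 0.0197) and exon 16 (0.96, adjusted p = 0.0334), and all 10 tested exons of GRIK1 had a positive log2 fold change, from 0.57 to 1.34. In GRID1 exon 8 rose (1.14, SE 0.33, adjusted p = 0.025), while in GRIK3 an exon of 71 bases outside the RefSeq coding sequence fell by 0.69 on the log2 scale (adjusted p = 0.0167). The count of exons called rested on single libraries, with 1 called without GD60 male 6, GD90 male 1 or GD90 male 8. The count was 3 without GD60 female 5 or without GD90 female 2, female 7 or male 10. Without GD45 male 17, which belongs to neither day compared, 8 exons were called. The exons of GRIK1 and GRID1 with the largest rise in this interval are given with the counts they rest on, 57 and 150 over the libraries of GD60 and GD90 for GRIK1 exon 11, and 80 and 183 for GRID1 exon 8.
GRIK1 exon 11, 204 bases, chr13:192935886-192936089, minus strand: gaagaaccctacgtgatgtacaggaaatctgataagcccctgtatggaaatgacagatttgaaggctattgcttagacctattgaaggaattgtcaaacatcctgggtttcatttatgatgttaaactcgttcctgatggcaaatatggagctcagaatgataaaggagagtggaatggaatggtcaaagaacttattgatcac
GRID1 exon 8, 120 bases, chr14:86754428-86754547, minus strand: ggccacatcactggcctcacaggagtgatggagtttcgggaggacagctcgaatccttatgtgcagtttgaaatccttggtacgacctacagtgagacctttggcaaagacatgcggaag

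GRIK1 also has a short exon of 45 bases that not all of its 5 annotated transcripts include. It held too few counts for a test, with 0, 1 and 6 summed over the libraries of GD45, GD60 and GD90. The exon of 108 bases before it held 10, 12 and 31. The GRIK1 exon of 54 bases, which all 5 annotated transcripts include, held only 2, 1 and 3. Because reads that span a junction were not counted, such low counts do not show how often a short exon was included. Inclusion of the exon of 45 bases could therefore not be compared between days from these counts.
GRIK1 exon of 45 bases, chr13:192942975-192943019, minus strand: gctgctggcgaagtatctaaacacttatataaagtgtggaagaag

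**Figure D4:**
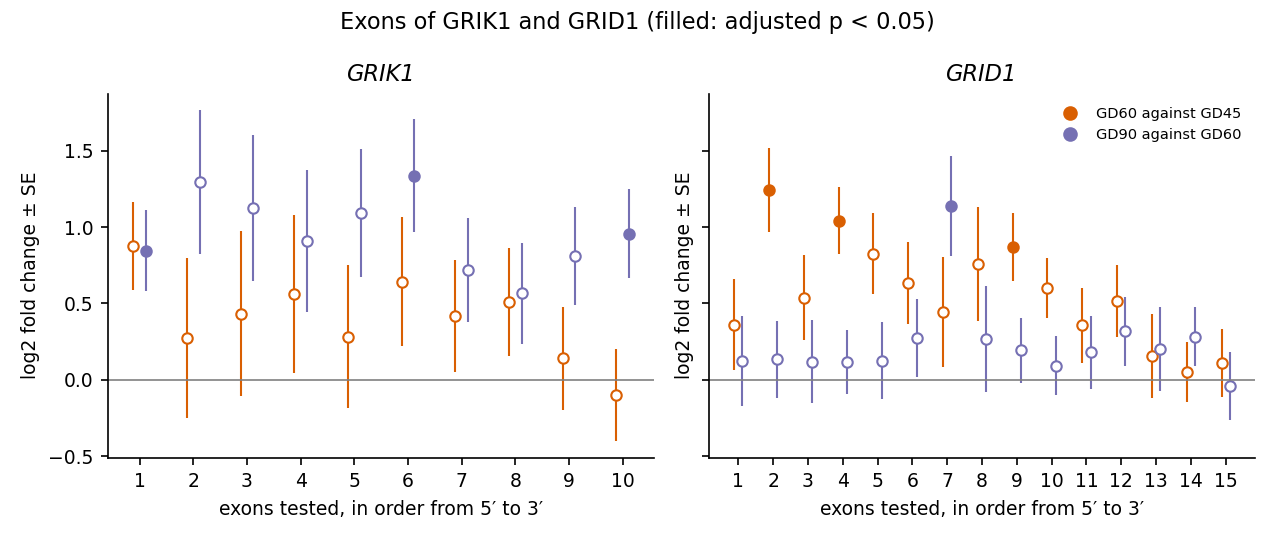
Log2 fold change ± SE of each tested exon of GRIK1 and GRID1, in order from the 5′ to the 3′ end and numbered among the tested exons only, for both intervals, with filled points where the adjusted p was under 0.05. The exons of GRIK1 lie above 0 throughout from GD60 to GD90 (0.57 to 1.34), while in GRID1 the rise from GD45 to GD60 is large at exon 2 (1.24) and near 0 at the last exon (0.11).

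Since GluK4 and GluK5 need a channel-forming partner, the share of GRIK4 and GRIK5 in the sum of the 5 kainate genes was compared between days, on exon counts per exonic base. The share was 67.2 ± 5.73% at GD45, 66.7 ± 6.55% at GD60 and 64.5 ± 4.88% at GD90 (SD, n = 6). The differences of -0.517 and -2.18 percentage points were within the spread between libraries (two-sided exact permutation p = 0.885 and p = 0.522, where the smallest p possible is 0.00216). On gene counts per length, which include the 3′ exons of GRIK4, the share was 70.4%, 69.4% and 66.2% (exact permutation p = 0.771 and p = 0.297). On that basis GRIK5 alone made up 64.4%, 63.5% and 59.2% of the sum, GRIK3 16.5%, 14.4% and 13.0%, GRIK2 9.36%, 11.6% and 11.7% and GRIK4 5.97%, 5.89% and 7.08%. GRIK1 made up 3.77%, 4.68% and 9.03%.

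Genes whose products act with these receptors were examined as lists. Of 13 partners of kainate receptors, 5 rose and none fell from GD45 to GD60 (median log2 fold change 0.31), and 5 rose and 3 fell from GD60 to GD90 (median 0.20), against medians of -0.01 over all genes. The calls made up 38.5% and 61.5% of this list, beside 16.7% and 42.4% of all genes. NETO1, an auxiliary subunit of kainate receptors, had a mean of 6.45 CPM at GD45, 13.2 at GD60 and 25.8 at GD90 and rose in both intervals (0.98, adjusted p = 0.018, and 0.97, adjusted p = 0.00663). The earlier of these calls was lost in 3 of 30 alternatives, among them that without GD60 female 3, and the later in 1 of 30. ADARB1, which encodes an enzyme that edits glutamate receptor transcripts, had means of 83.4, 109 and 180 CPM and rose by 0.39 and 0.72 on the log2 scale. DLG4, the postsynaptic scaffold PSD-95, had means of 286, 380 and 634 CPM and rose by 0.41 and 0.74. C1QL3, a secreted synaptic protein, rose from GD60 to GD90 by 1.53. KLHL24, whose product interacts with GluK2, fell by 0.41, and GRIP1, a scaffold, fell by 0.51, the latter a call that was lost without any 1 of 6 libraries (GD60 female 3, female 5 and male 4, and GD90 female 2, male 1 and male 8). NETO2, the other auxiliary subunit, had means of 126, 160 and 156 CPM and a call from GD45 to GD60 (0.34, adjusted p = 0.037) that was lost in 15 of 30 alternatives.

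Of 7 partners of delta receptors, none passed from GD45 to GD60 (median 0.32) and 3 rose from GD60 to GD90 (median 0.55), which is 42.9% of the list and close to the 42.4% of all genes that passed in that interval. These 3 were C1QL1 (1.34) and CBLN2 (0.34), which encode secreted synaptic proteins, and NRXN3 (1.42), a neurexin. CBLN1, a cerebellin that binds delta receptors, was not called in either interval, with log2 fold changes of -0.35 (SE 0.24) and 0.42 (SE 0.24). From GD45 to GD60, C1QL1 (0.53, adjusted p = 0.0558) and NRXN2 (0.73, adjusted p = 0.0573) lay just short of the threshold, and each passed in 8 of 30 alternatives.

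The other ionotropic glutamate receptors were measured for comparison. Of 4 AMPA receptor subunits, 3 rose in each interval (75.0%), with medians of 0.48 and 0.42. The calls of GRIA2 in the first and of GRIA3 in the second were lost in 9 and 12 of 30 alternatives, whereas GRIA1 had means of 135, 183 and 280 CPM. Of 7 NMDA receptor subunits, 3 rose in each interval, with medians of 0.54 and 0.81, or 42.9% of the list against 16.7% and 42.4% of all genes. With litter as a block, GRIN2A and GRIN2D no longer passed from GD45 to GD60 (adjusted p = 0.0584 and 0.0593), which left 1 call, and that of GRIN2D was lost in 19 of 30 alternatives. GRIN1, the subunit that all NMDA receptors share, had means of 266, 459 and 925 CPM and rose by 0.79 and 1.01 on the log2 scale. GRIN2A had means of 1.60, 4.30 and 12.8 CPM, with log2 fold changes of 1.36, the change that did not pass with the litter block, and 1.47. Among the kainate genes, GRIK1 alone rose in both intervals, and its later change of 0.91 lay between those of GRIA1 (0.61) and GRIN1 (1.01).

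**Figure D5:**
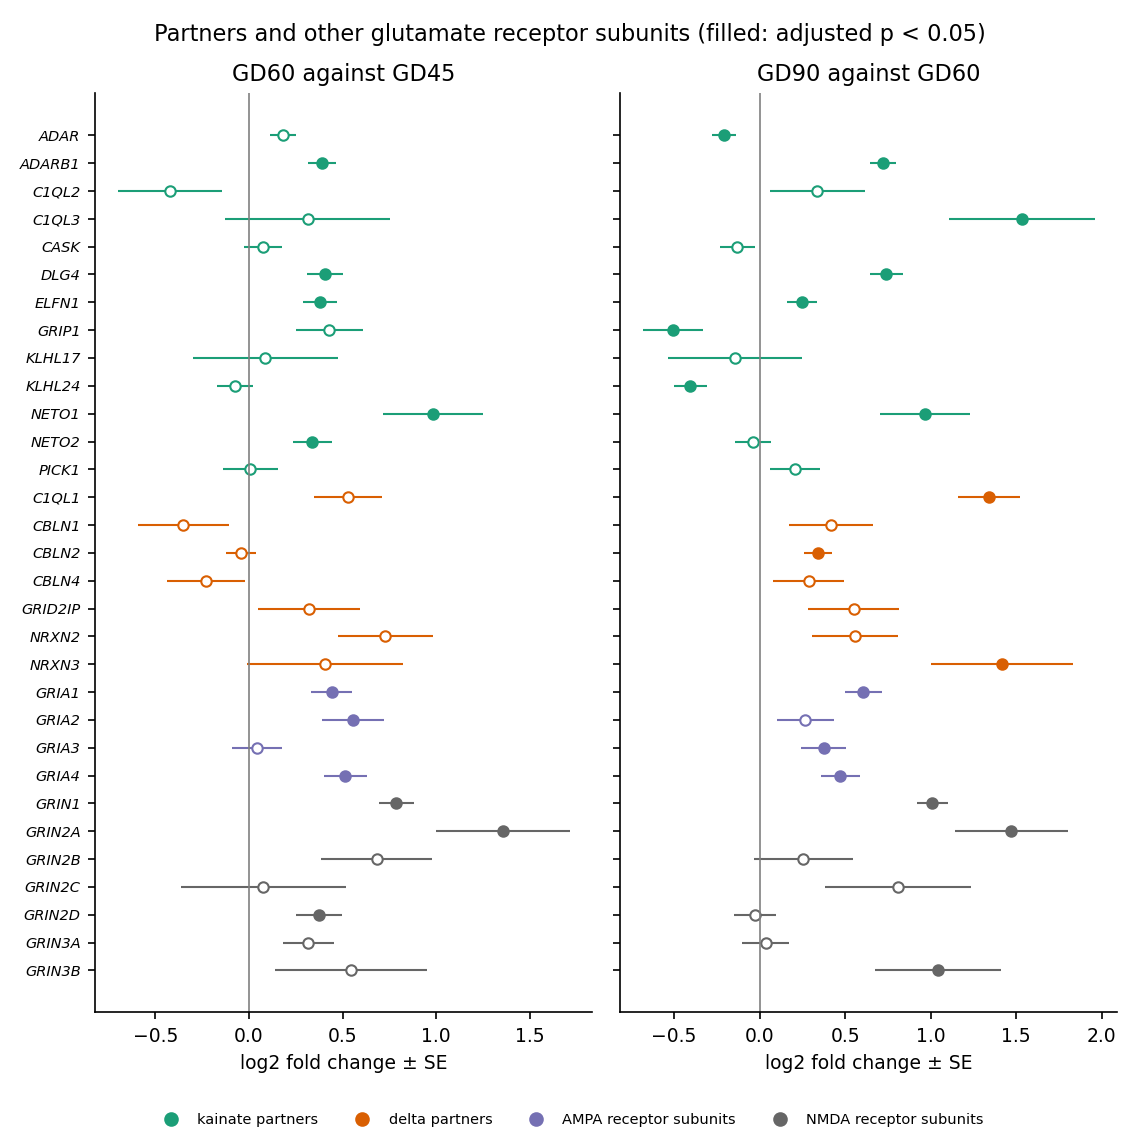
Log2 fold change ± SE of 13 partners of kainate receptors, 7 partners of delta receptors, 4 AMPA and 7 NMDA receptor subunits between consecutive gestation days, with filled points where the adjusted p was under 0.05. NETO1 and GRIN1 are filled and above 0 in both intervals, whereas the delta partners are filled only from GD60 to GD90.

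The genes with the pattern most like each member were taken as the 3 highest Pearson correlations of log2 CPM over 18 libraries among 12802 genes, which share the libraries and their days. For GRIK1 these were RPH3A (r = 0.98), GRAMD2B (0.98) and FGF1 (0.98), and for GRID1 CSGALNACT1 (0.97), ATP6V0A1 (0.96) and RTN4RL1 (0.96). GRIK2 was closest to SETD5, CSMD3 and ZNF396 (0.95 each), GRIK4 to NR3C2 (0.94), TMEM132D (0.93) and BTRC (0.92), and GRIK5 to ADCK2 (0.96), B3GALT6 (0.95) and LRRN2 (0.94). GRIK3 had the weakest match, with ZNF618 at 0.90 and SLC4A8 and CEP250 at 0.89. Among the members themselves, GRIK1 and GRID1 had an r of 0.84 and GRIK1 and GRIK4 one of 0.73, whereas GRIK2 and GRIK5 had one of -0.57.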

How the data were processed

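The authors deposited raw read counts per gene and per exon, which their processing notes tie to Trimmomatic, HISAT2 and featureCounts on the Sscrofa11.1 build with Ensembl annotation, the strand setting being not given in the sources used here. RNA of whole fetal brains was enriched for poly(A) and sequenced as paired reads. From these counts, 22 columns were mapped to 18 libraries by the labels, and the repeat runs of 4 libraries were summed. CPM were counts over the library's total times its TMM factor, and FPKM were CPM per kilobase of summed exon length. Genes and exons were filtered with filterByExpr, scaled with TMM and fitted with edgeR 4.0.16 (R 4.3.3) as 1 model of 6 groups of sex and day, and contrasts were tested with the quasi-likelihood F test, with Benjamini-Hochberg adjustment over 16325 genes or 80134 exons at 0.05. The test steps were tested on simulated counts.

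Alternatives were the likelihood ratio test, DESeq2 1.42.0, no TMM, other filters, only the compared libraries, litter as a block, exon table sums, litter sums and each library left out. Leaving out the GD45 litter of 8, dropping the exon nearest the 3′ end and using its share as a covariate were added after seeing the data. Litter was inferred from day and labelled litter size, and piglet numbers do not pair samples across groups. Nothing else in the labels says how the samples were kept separate, so p-values measure only the spread between these fetuses. Intervals and floors of counts would cover counting error only and are not given. Genes named were the members, the fixed partner, receptor and marker lists, the 3 genes most correlated with each member, and the called exons with the largest rise or fall, exons 4 and 10 of GRID1, exons 1 and 16 of GRIK1 and its exon of 45 bases being named beside them. The members and lists were chosen with earlier results of these data known. Of the list of delta receptor partners, 2 genes are not reported here.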

Additional observations from a re-analysis of the deposited data

Results flagged for a closer look

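GRIK5 in male 17 of GD45 stood apart from the other libraries of that day, at 323 CPM where the next highest had 224 CPM. The gap was 0.855 of the whole range of the 6 libraries, past Dixon's critical value for 6 samples. It was the only 1 of 21 sets of 6 libraries examined to pass, and 1 crossing is about as many as chance gives. That count leaves the size of the gap aside, and the next largest gap of the 21 sets was 0.592 of the range, for GRIK1 at GD45. Without TMM factors the GRIK5 values were 274 and 234 CPM and the gap was 0.655 of the range, still past the critical value. The same library had the highest share of exon counts on the exon nearest the 3′ end, 65.3%, and the lowest TMM factor of GD45, 0.849. Whether these move together with GRIK5 for a common reason was not tested.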

How the results depend on the processing

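The number of receptor genes called from GD45 to GD60 was 2 and became 1 with exon table sums and without the exon nearest the 3′ end, and that from GD60 to GD90 was 2 and became 1 without TMM, without a filter, with exon table sums, with litter sums and without the exon nearest the 3′ end. In females the number from GD45 to GD60 was 2 and became 0 without TMM, without a filter, with only the compared libraries, with exon table sums, without the GD45 litter of 8 and without the exon nearest the 3′ end, and that from GD60 to GD90 was 3 and became 1 with only the compared libraries and without the exon nearest the 3′ end. In males the first was 1 and became 0 with only the compared libraries and without the exon nearest the 3′ end, and the second was 1 and became 2 without TMM, with only the compared libraries and without the litter of 8. The number of receptor exons called from GD45 to GD60 was 3 and became 5 with the likelihood ratio test, 0 with only the libraries of both days and 1 without the litter of 8. The difference in the share of GRIK4 and GRIK5 from GD45 to GD60 turned to 0.422 points without lengths and 0.286 without the litter of 8. Values that changed sign were those of GRIK3 from GD45 to GD60 (0.0324 without the litter of 8, 0.23 without the exon nearest the 3′ end), of GRIK5 in the same interval (-0.0095 with exon sums) and of GRIK2 from GD60 to GD90 (0.0184 with the litter block, 0.0895 with exon sums and 0.0939 without the exon nearest the 3′ end). The cause was not tested.

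When single libraries were left out, the numbers of genes called ranged from 2 to 2 and from 1 to 3 with the sexes averaged, from 0 to 2 and 1 to 3 in females and from 1 to 1 and 1 to 2 in males, those of exons from 0 to 3 and from 1 to 8, and the share differences from -2.02 to 1.24 and from -3.90 to -0.678 points. The log2 fold change of GRIK3 from GD45 to GD60 then ranged from -0.15 to 0.0115 and that of GRIK2 from GD60 to GD90 from -0.13 to 0.11. With litter as a replicate block (estimated correlation 0.104) the calls of the 6 genes did not change, while those of GRIN2A and GRIN2D from GD45 to GD60 were lost (adjusted p = 0.0584 and 0.0593), with GRIK1 at 0.43 and 0.90 and GRID1 at 0.54 and 0.24, and with litter means the share gave exact permutation p-values of 0.9 and 0.6, where 0.1 is the smallest possible. No member was called between the sexes, or for a difference in change between them, in any alternative. Of the calls of partner and other receptor genes, 2 of 11 in the first interval and 9 of 17 in the second held in every alternative, and 6 and 12 held in all those on gene counts. KLHL24 turned in sign once. Over all genes, the counts called moved by over 1.5 times in some settings, from 2730 to 1703 (exon sums) and 1041 (without the exon nearest the 3′ end) in the first interval and from 6917 to 3445 (without that exon) in the second. In females of the first interval 1178 became 1806 (DESeq2), 537, 183 and 2107 (exon sums, without that exon, covariate), and in males 916 became 1411, 400, 117 and 1974 in these settings, 0 with only the compared libraries and 1550 without the litter of 8. In the second interval 4426 became 2791 and 1482 in females and 5634 became 2890 in males (exon sums, without that exon, and the latter alone). Between the sexes 15, 16 and 16 each became 9 without that exon, and the last became 42 (likelihood ratio), 52 (DESeq2) and 1062 (only the compared libraries). For the difference in change from GD60 to GD90, 0 became 1145 with only the compared libraries and 2104 without the litter of 8. Exons called from GD45 to GD60 went from 1602 to 4088 (likelihood ratio), 446 (only those libraries) and 1006 (without the litter of 8).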
